A study of Mus musculus domesticus with 12 samples.

Results

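Reduction of either catalytic subunit of the RNA exosome was compared with a control hairpin in mouse erythroid precursors. The comparison took in 8 knockdown libraries, 4 with a short hairpin RNA (shRNA) against Dis3 (shDis3) and 4 with one against Exosc10 (shExosc10), and 4 control libraries with an shRNA against firefly luciferase (shLuc), a gene that mouse cells lack. These were all 12 libraries of the study, and the members were chosen by the shRNA named in their labels. Each knockdown group carried equal weight, so a positive log2 fold change means that the mean of shDis3 and shExosc10 was above shLuc. All 3 groups started from C57BL/6J fetal liver at E14.5, were depleted of lineage-positive cells, were infected with a retrovirus and grew for 2 days in medium that expands erythroid cells. GFP+ cells of 2 stages, CD71int Ter119- precursors and CD71int/+ Ter119- proerythroblasts, were then sorted into each sample, so every group held infected cells and a mixture of those stages. The labels do not say how many hairpins, embryos or cultures stood behind a group. A p-value here thus rests on how far libraries of a group varied, and that variation may be technical.

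The RNA exosome is a ring-shaped complex that degrades and trims RNA from the 3′ end. DIS3 and EXOSC10 are its nucleases: DIS3 joins the bottom of the ring and also cuts internally, and EXOSC10 sits on the cap in the nucleus, where it trims ribosomal and small nucleolar RNA precursors. Among its other substrates are unstable transcripts from promoters and antisense strands. In mouse erythroid precursors the complex is known for holding back maturation while the cells still respond to stem cell factor through the receptor Kit. The comparison asks which transcripts differed from control when either nuclease was reduced.

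Of 55385 annotated genes, 17650 passed a filter on low counts and were tested. Library totals ran from 14936178 to 32397192 estimated counts, and levels are given below as CPM, a count divided by the library total and scaled to a common depth, adjusted by trimmed means (TMM). The libraries did not sort by hairpin: over 6446 genes of at least 20 CPM, 6 of the 12 libraries correlated best with one from their own group. shDis3 replicate 3 lay closest to shLuc replicate 4 (r = 0.988), and shDis3 replicate 4 lay closest to shExosc10 replicate 1 (r = 0.983). Values that moved with single libraries are therefore also given as the range over fits that left out each of the 12 libraries in turn. An erythroid marker was present in every library: Klf1, an erythroid transcription factor, ranged from 52.5 to 123 TPM in knockdown and from 52.6 to 114 TPM in shLuc cells. Markers of other cells differed in level. The liver marker Alb reached at most 1.81 TPM in knockdown and 0.07 TPM in shLuc cells, and Afp, another, 2.06 and 0.89 TPM. The vessel marker Cdh5 reached 0.09 TPM in knockdown and 0.10 TPM in shLuc cells. Pecam1, which vessels share with megakaryocytes, ranged from 2.04 to 14.5 TPM in knockdown and from 0.50 to 13.5 TPM in shLuc cells. Gzmb, a protease of cytotoxic lymphocytes, ranged from 0 to 12.8 CPM in knockdown and from 0 to 22.9 CPM in shLuc cells. It stood at 10.9 to 22.9 CPM in shDis3 replicates 3 and 4, shExosc10 replicate 1 and shLuc replicate 4. Every other library held at most 0.54 CPM. The granulocyte enzyme Mpo was abundant, at 291 to 1617 TPM in knockdown and 125.5 to 1855 TPM in shLuc cells, so myeloid RNA was present in all groups. In such bulk samples, fewer cells of a type and less RNA per cell cannot be told apart.

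Each nuclease was lowest in the libraries with its own hairpin, and the other hairpin left it within or above the shLuc range in most libraries. Dis3 (chromosome 14, 99075206 to 99099770, GRCm38) stood at 32.8, 24.7, 43.2 and 52.4 CPM in shDis3 libraries and at 196, 130, 129.7 and 117 CPM in shExosc10 libraries, against 125.5, 125.7, 113 and 160.5 CPM in shLuc libraries. All 4 shDis3 libraries lay below every shLuc library. Its log2 fold change was -1.78 in shDis3 (SE 0.24, adjusted p = 0.0581) and 0.12 in shExosc10 (SE 0.24), and the difference between the knockdowns passed the threshold (adjusted p = 0.0138, edgeR quasi-likelihood test), as it did for 2 genes in all (0.0113% of those tested), the targets. Exosc10 (chromosome 4, 148558429 to 148582401) stood at 117, 80.1, 116 and 141 CPM in shDis3 libraries and at 30.8, 25.8, 18.9 and 30.2 CPM in shExosc10 libraries, against 85.4, 92.4, 102 and 113 CPM in shLuc libraries. In shExosc10 it fell by 1.89 in log2 units (SE 0.21, adjusted p = 0.00502) and had a value of 0.21 in shDis3 (SE 0.20), a difference of 2.11 between the knockdowns (adjusted p = 0.00144). Pooled over both knockdowns the targets had log2 fold changes of -0.83 and -0.84, which average a lowered and an unlowered group and did not pass (adjusted p = 1 for each).

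**Figure D1:**
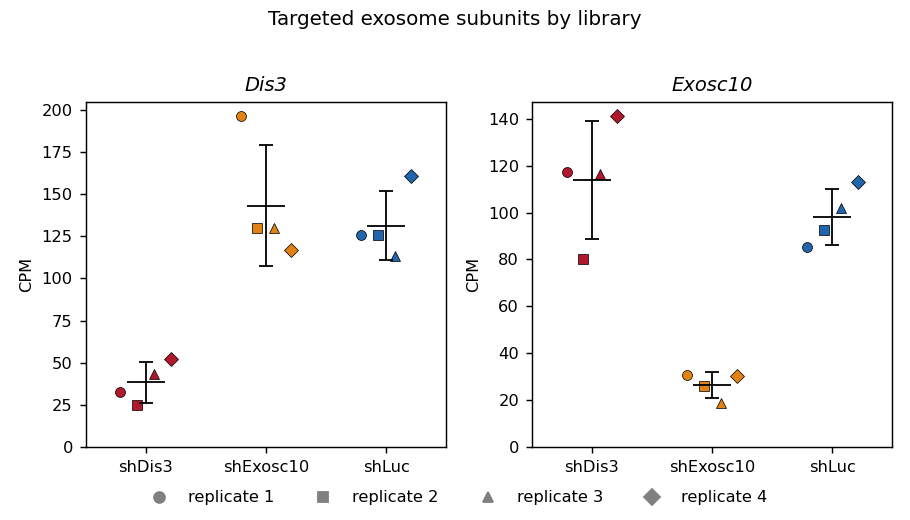
Level of Dis3 (left panel) and Exosc10 (right panel) in CPM on a linear axis, by group, with a symbol for each replicate and bars for the mean and SD of 4 libraries. Each target was lowest in the libraries with its own hairpin, and the other knockdown overlapped shLuc or lay above it.

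No gene passed an adjusted p of 0.05 when both knockdowns were pooled against shLuc with edgeR (0 of 17650 genes, 0%, in either direction). Without adjustment, 397 genes (2.25%) had a p under 0.05, 196 with higher (1.11%) and 201 with lower levels (1.14%) in knockdown cells, fewer than the 882 that this threshold gives by chance. The median log2 fold change over all genes was 0.01 and its median standard error 0.31. A median of signed values lies near 0 when higher and lower genes balance, so it does not give the size of most differences. On the same counts DESeq2 called 3 genes higher (0.017%), Serinc3, Ppbp and Rab1a, and 2 lower (0.0113%), Exosc10 and Dis3, and limma on log2(TPM + 1) called 0. Taken by themselves, shDis3 gave 0 genes past the threshold (0%), with 719 at an unadjusted p under 0.05 (4.07%). shExosc10 gave 1 (0.00567%), Exosc10 itself, with 371 at an unadjusted p under 0.05 (2.1%). These comparisons share the shLuc libraries. Since no gene passed in the pooled comparison, the genes below are described by their values, and no change is claimed for them.

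In 25 genes (0.142% of those tested) the 8 knockdown libraries did not overlap the 4 shLuc libraries. Some genes separate in this way by chance alone, and that number was not computed, so the count is no result about these genes. Among the 9467 genes that averaged 5 CPM or more, 13 lay wholly above shLuc (0.137%) and 4 wholly below (0.0423%). Rab1a (chromosome 11, 20201432 to 20226856), a small GTPase that carries vesicles from the endoplasmic reticulum to the Golgi, had the highest log2 fold change of the 13. It stood at 69.7, 66.2, 65.4 and 97.8 CPM in shDis3 libraries and at 104, 83.4, 85.0 and 75.8 CPM in shExosc10 libraries, against 18.6, 18.2, 17.8 and 59.8 CPM in shLuc libraries. shLuc replicates 1, 2 and 3 were far below all knockdown libraries, and shLuc replicate 4 lay just under the lowest of them. The pooled log2 fold change was 1.49 (SE 0.32, unadjusted p = 0.000323, adjusted p = 1), with 1.38 in shDis3 and 1.60 in shExosc10. Without shLuc replicate 4 it was 2.15 and passed the threshold (adjusted p = 0.000563, edgeR), the sole gene of 19777 tested that did (0.00506%).

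Serinc3 (chromosome 2, 163623272 to 163645131), a membrane protein of the serine incorporator family, was singled out after its values were seen because DESeq2 called it. It stood at 568, 499, 448.5 and 664 CPM in shDis3 libraries and at 685, 544, 635 and 525 CPM in shExosc10 libraries, against 234, 250.3, 241 and 449.6 CPM in shLuc libraries. Here too shLuc replicate 4 was apart from the other shLuc libraries, and it just exceeded the lowest knockdown library. The log2 fold change was 0.96 (SE 0.20, adjusted p = 1 with edgeR and 0.00229 with DESeq2), 0.89 in shDis3 and 1.02 in shExosc10.

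The other genes of at least 5 CPM that lay wholly above shLuc had smaller log2 fold changes than Rab1a. Sh3bgrl, a small thioredoxin-fold protein, ranged from 54.5 to 94.8 CPM (median 74.1) in knockdown and from 34.7 to 50.6 CPM in shLuc libraries, a log2 fold change of 0.75 (SE 0.18). Timm10, a chaperone for proteins entering the inner mitochondrial membrane, ranged from 15.1 to 31.9 CPM in knockdown and from 7.55 to 14.6 CPM in shLuc libraries (log2 fold change 1.05, SE 0.26). Xrn1, the cytoplasmic exonuclease that degrades RNA from the 5′ end, stood at 52.2, 53.7, 59.7 and 60.0 CPM in shDis3 libraries and at 61.2, 65.2, 65.1 and 66.2 CPM in shExosc10 libraries, against 42.2, 50.2, 37.04 and 49.98 CPM in shLuc libraries. Its log2 fold change was 0.43 (SE 0.13), with a narrow spread in shExosc10. F630028O10Rik (X chromosome, 96239926 to 96243636, plus strand), annotated as an antisense RNA, ranged from 26.7 to 96.4 CPM (median 47.0) in knockdown and from 15.1 to 26.03 CPM in shLuc libraries. Its log2 fold change was 1.33 (SE 0.32), and since the strand setting of the counting is not given, reads of an overlapping gene on the other strand cannot be told apart from its own.

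The remaining 8 of the 13 were Rbm12b2 (an RNA-binding motif protein, log2 fold change 0.53), Cldnd1 (0.61), Cdc26 (a subunit of the anaphase-promoting complex, 0.51), Cab39l (0.45), D5Ertd579e (0.36), Nsmce4a (a subunit of the SMC5/6 DNA repair complex, 0.36), Chid1 (0.42, with 0.58 in shDis3 and 0.25 in shExosc10) and Tmx2 (0.25). For Tmx2 the knockdown libraries began at 31.1 CPM and the shLuc libraries ended at 30.6 CPM, so the separation was narrow. Below shLuc lay Phf13, a reader of methylated histone H3, at 2.85 to 6.97 CPM in knockdown and 7.36 to 12.5 CPM in shLuc libraries, with a log2 fold change of -0.93 (SE 0.26). Endod1 had a log2 fold change of -0.53, Gtf2ird2 one of -0.48, and Ankfy1, an endosomal trafficking protein, one of -0.41. The adjusted p was 1 for each of the 17 genes, and for Endod1 the gap was within 0.1 CPM, with 51.01 CPM in the highest knockdown and 51.02 CPM in the lowest shLuc library.

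**Figure D2:**
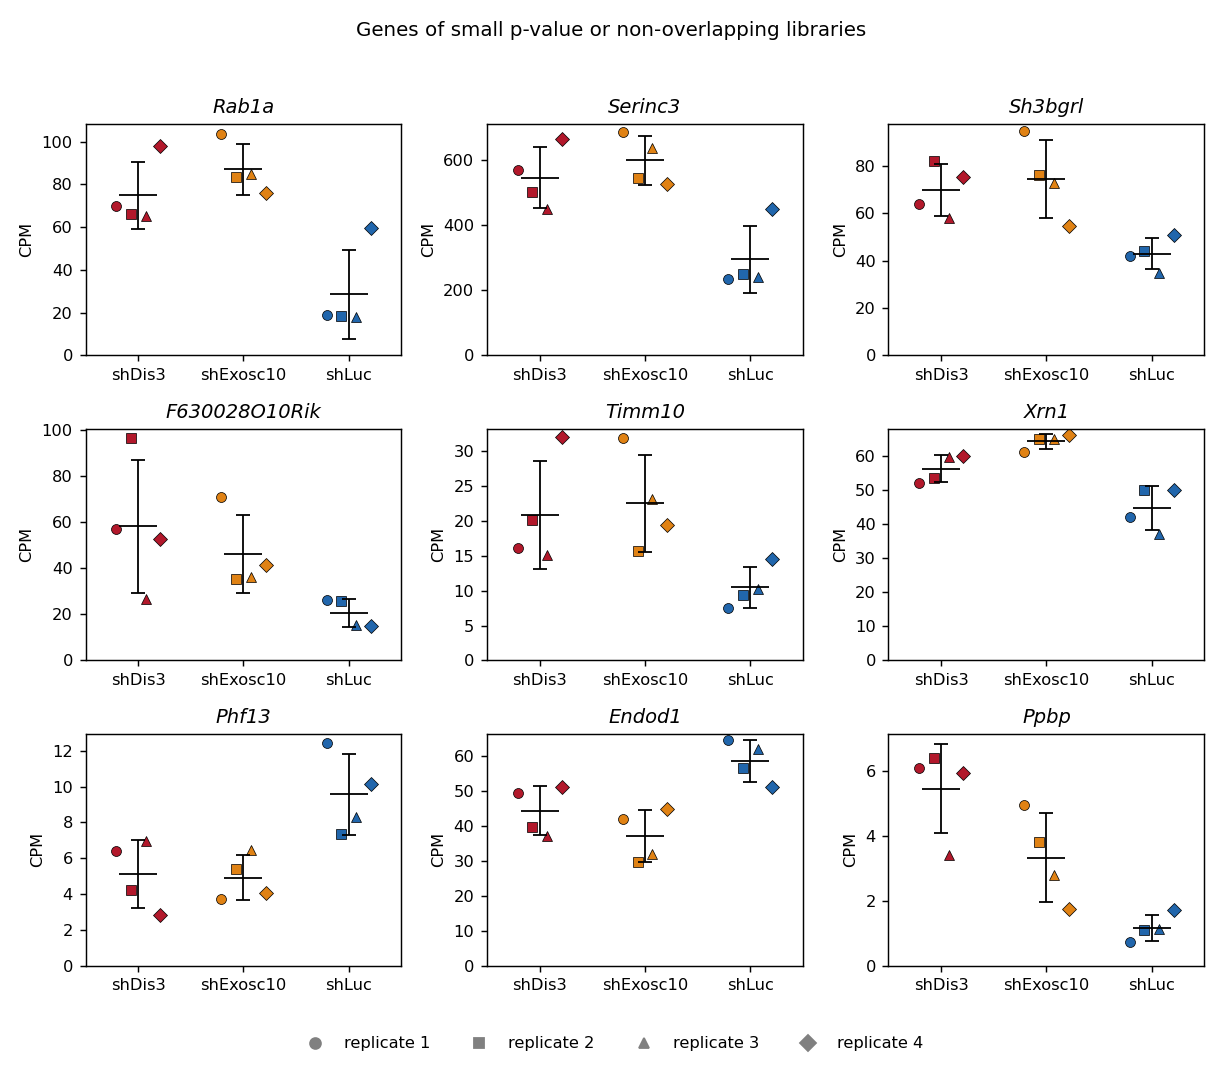
Level in CPM on linear axes, by group, of 8 genes of small p-value or non-overlapping libraries and of the platelet gene Ppbp, with a symbol for each replicate and bars for the mean and SD of 4 libraries. Rab1a and Serinc3 show shLuc replicate 4 (blue diamond) apart from the other shLuc libraries, at 59.8 and 449.6 CPM.

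The exosome itself and the machinery around it had values near 0 as groups. Of 13 exosome subunits tested, 9 had a positive log2 fold change, against 52% of all genes, and the median was 0.05. The targets aside, the values lay close to 0. Exosc9, a ring subunit, had a log2 fold change of 0.27 (SE 0.19), with 157 CPM in shDis3 replicate 4 and 166 CPM in shExosc10 replicate 1 but 87.1 to 113 CPM in the other knockdown libraries and 87.9 to 111 CPM in shLuc libraries. The 20 cofactors and adaptors, such as the helicases and zinc-finger proteins that hand substrates to the exosome, had a median of -0.03, and 9 of them were positive. The 32 other RNA decay enzymes had a median of -0.10 with 10 positive, and of them Xrn1 lay wholly above shLuc. Cnot6, a deadenylase of the CCR4-NOT complex, averaged 98.1 ± 15.9 CPM in knockdown (SD, n = 8) and 123.5 ± 18.1 CPM in shLuc libraries (SD, n = 4), a log2 fold change of -0.33.

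Small structured RNAs are made or trimmed with the help of the exosome, and 2 of them are shown here because they carried the smallest p-values of the 27 snoRNA genes tested. Both guide modifications of spliceosomal RNAs in Cajal bodies. The sequences are those of the GENCODE M21 transcripts (GRCm38, written as DNA), in lower case, with capitals for an ACA box 3 bases before the 3′ end, the hallmark of the H/ACA class. That box was found at this place in Scarna13 and not in Scarna10, and 301 of 1558 annotated snoRNA and scaRNA transcripts (19.3%) hold it, searched on the transcript strand alone.
Scarna10, last 300 of 325 bases, chr6:125186359-125186658, minus strand: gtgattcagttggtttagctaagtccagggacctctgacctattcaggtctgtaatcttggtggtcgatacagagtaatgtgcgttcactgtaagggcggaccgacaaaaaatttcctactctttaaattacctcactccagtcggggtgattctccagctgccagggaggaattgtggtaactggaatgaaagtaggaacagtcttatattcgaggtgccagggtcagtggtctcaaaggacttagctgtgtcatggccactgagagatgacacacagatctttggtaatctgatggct
Scarna13, all 275 bases, chr12:105031075-105031349, minus strand: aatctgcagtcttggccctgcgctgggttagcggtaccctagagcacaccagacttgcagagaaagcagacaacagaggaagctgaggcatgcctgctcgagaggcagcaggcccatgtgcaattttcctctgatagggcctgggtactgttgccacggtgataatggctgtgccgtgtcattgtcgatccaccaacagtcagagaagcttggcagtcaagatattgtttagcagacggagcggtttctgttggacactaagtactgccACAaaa

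Scarna13 stood at 41.9, 83.8, 32.2 and 90.5 CPM in shDis3 libraries and at 75.1, 68.9, 61.0 and 86.4 CPM in shExosc10 libraries, against 372.5, 43.0, 128 and 32.7 CPM in shLuc libraries. The high values of shLuc came from replicates 1 and 3, and the other shLuc libraries lay within the knockdown range or at its lower end. The log2 fold change was -1.10 (SE 0.49, adjusted p = 1), and ran from -1.45 without shLuc replicate 4 to -0.02 without shLuc replicate 1. Scarna10 followed the same libraries, with 18.4 to 54.99 CPM in knockdown and 230, 25.96, 83.3 and 17.03 CPM in shLuc libraries, and its log2 fold change of -1.17 ran from -1.54 to -0.10 with the same libraries left out. Rn7sk, the 7SK RNA that holds back the elongation factor P-TEFb, showed the same split, at 2837 to 7027 CPM in knockdown and 19506, 3337, 9462 and 2813 CPM in shLuc libraries. Rpph1, the RNA of ribonuclease P, ranged from 3694 to 8674 CPM in knockdown and stood at 18840, 4761, 14724 and 3914 CPM in shLuc libraries.

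As classes, 26 of 27 snoRNA genes, 11 of 11 snRNA genes and 9 of 9 other structured RNA genes had negative log2 fold changes, against 48% of all genes. Their medians were -0.90, -1.11 and -0.49, and 0 of these genes passed the adjusted threshold. Without shLuc replicate 1 the medians were -0.23, -0.74 and -0.07, without shLuc replicate 3 they were -0.67, -0.61 and -0.35, and without shLuc replicate 4 they were -1.27, -1.49 and -0.78. Structured RNA took 1.36% to 3.47% of the counts in knockdown libraries and 6.26%, 1.80%, 4.63% and 1.36% in shLuc libraries, so the share moved with shLuc replicates 1 and 3, and its part in these values was not tested. Several snRNA genes are near-identical copies whose counts RSEM splits, so they are not independent. Among the hosts that carry snoRNAs in their introns, 9 of 14 had negative values with a median of -0.18. Snhg1, one of them, ranged from 76.5 to 158 CPM in knockdown and stood at 283.5, 133, 131 and 79.0 CPM in shLuc libraries. Its log2 fold change was -0.39, with 0.07 without shLuc replicate 1 and -0.63 without shLuc replicate 4. Zfas1, another host gene, had a log2 fold change of -0.28, with -0.10 and -0.47 without those libraries.

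Genes that p53 switches on after stress had mostly positive values, with the larger median in shDis3. Of 42 targets, 37 had a positive pooled log2 fold change (88.1%, against 52% of all genes), and 3 passed an unadjusted p under 0.05 in that direction (against 1.11% of all genes). The median was 0.32 pooled, 0.59 in shDis3 and 0.08 in shExosc10, and it ran from 0.21 without shLuc replicate 4 to 0.40 without shDis3 replicate 3. Ak1, an adenylate kinase, stood at 15.4, 9.32, 3.79 and 8.77 CPM in shDis3 libraries and at 3.22, 7.08, 6.94 and 4.16 CPM in shExosc10 libraries, against 2.32, 3.78, 2.65 and 1.11 CPM in shLuc libraries. All but 1 knockdown library exceeded every shLuc library, and the log2 fold change was 1.52 (SE 0.40, adjusted p = 1). Fas, the death receptor, had a log2 fold change of 1.51 at low levels, 0.49 to 7.48 CPM in knockdown and 0.13 to 1.81 CPM in shLuc libraries. Eda2r, another receptor of that family, ranged from 6.59 to 21.6 CPM in knockdown and from 2.58 to 12.6 CPM in shLuc libraries.

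Mdm2, the ubiquitin ligase that p53 induces and that degrades it, stood at 166, 140, 73.5 and 159 CPM in shDis3 libraries and at 84.6, 105, 121 and 94.5 CPM in shExosc10 libraries, against 93.3, 92.6, 97.3 and 68.0 CPM in shLuc libraries. shDis3 replicate 3 and shLuc replicate 4 were the lowest of their groups for Mdm2, and likewise for Eda2r, Psrc1 and Ak1. Its pooled log2 fold change was 0.41 (SE 0.21), with 0.61 in shDis3 and 0.21 in shExosc10. Psrc1, a spindle protein, had 0.61 pooled, 0.99 in shDis3 and 0.22 in shExosc10. The difference between the knockdowns did not pass for any of these 5 targets (adjusted p from 0.786 to 0.925, edgeR). Trp53, the p53 gene itself, averaged 122 ± 20.8 CPM in knockdown (SD, n = 8) and 139.5 ± 13.9 CPM in shLuc libraries (SD, n = 4), a log2 fold change of -0.20. Of 26 genes of DNA damage checkpoints and repair, 10 were positive and the median was -0.06. Atm, the kinase that signals double-strand breaks, gave -0.53 (SE 0.23), from -0.62 without shExosc10 replicate 4 to -0.26 without shLuc replicate 1, which stood at 187 CPM against 101 to 112 CPM in the other shLuc libraries. The 22 apoptosis regulators outside p53 control had a median of -0.03.

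Erythroid genes gave no common direction. All 5 globin genes tested had values above 0, and their median log2 fold change was 0.58 (0.66 in shDis3 and 0.77 in shExosc10), but the libraries overlapped widely. Hbb-bt, an adult beta globin, stood at 215, 328.5, 62.5 and 103 CPM in shDis3 libraries and at 83.5, 144, 206 and 367 CPM in shExosc10 libraries, against 36.9, 177, 119 and 23.6 CPM in shLuc libraries. shLuc replicates 1 and 4 were below every knockdown library and the other shLuc libraries lay among them. Its log2 fold change was 1.08 (SE 0.57), against 0.51 for Hbb-bs, 0.58 for Hba-a2 and 0.40 for Hba-a1. With each library left out in turn, the median of the globins ran from 0.31 without shLuc replicate 4 to 1.02 without shLuc replicate 2. The alpha globin copies and the beta globin copies are near-identical pairs, so the split of reads within a pair is uncertain.

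Of 35 genes of the red cell membrane and of maturation, 17 were positive, with a median of -0.09, or -0.33 in shDis3 and 0.17 in shExosc10. Tmcc2, a gene of late erythroid cells, had the highest log2 fold change of the list, 2.33 (SE 0.77). It stood at 137.5, 157, 18.7 and 8.99 CPM in shDis3 libraries and at 7.58, 68.2, 72.4 and 59.1 CPM in shExosc10 libraries, against 4.28, 16.8, 20.6 and 9.65 CPM in shLuc libraries. Its knockdown libraries fell into 5 above every shLuc library and 3 (shDis3 replicates 3 and 4 and shExosc10 replicate 1) within their range. The value ran from 2.03 without shLuc replicate 1 to 2.65 without shLuc replicate 3. Car1, a carbonic anhydrase of early erythroid cells, ranged from 23.3 to 58.0 CPM in knockdown and from 17.5 to 28.1 CPM in shLuc libraries (log2 fold change 0.76, SE 0.25). Sptb, the beta spectrin of the membrane skeleton, had a log2 fold change of -0.25 (SE 0.33).

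Of 18 genes of heme synthesis, 6 were positive and the median was -0.11. Alas2, its rate-limiting erythroid enzyme, ranged from 6.56 to 40.9 CPM in knockdown and from 3.05 to 25.2 CPM in shLuc libraries (log2 fold change 0.74, SE 0.56), and its value ran from 0.41 without shLuc replicate 4 to 1.21 without shLuc replicate 2. The 20 genes of iron handling had a median of -0.03. Among them Isca1, which builds iron-sulfur clusters, ranged from 52.8 to 88.2 CPM in knockdown and from 47.0 to 55.6 CPM in shLuc libraries (log2 fold change 0.44), and Slc25a37, the mitochondrial iron importer mitoferrin, had a value of 0.48. Tfrc, the transferrin receptor CD71 on which the cells were sorted, differed by library: 362 to 560 CPM in shDis3 libraries and 618 to 1212 CPM in shExosc10 libraries, against 1413, 1094, 906 and 351 CPM in shLuc libraries. Its pooled log2 fold change was -0.47, with -0.97 in shDis3 and 0.04 in shExosc10. It was -0.75 without shLuc replicate 4 and -0.20 without shLuc replicate 1, the library with 1413 CPM.

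Of 21 erythroid transcription factors 17 had negative values (median -0.13), and of 19 genes of the erythropoietin and STAT5 response 16 had (median -0.13), against 48% of all genes. Gata2, a factor of early progenitors, ranged from 52.8 to 139 CPM in knockdown and from 60.8 to 222 CPM in shLuc libraries. Its log2 fold change was -0.77 (SE 0.30), with -0.35 without shLuc replicate 4, the library with 222 CPM, and -0.99 without shLuc replicate 2. Klf1 had a value of -0.27 and Lmo2, a partner of Gata1, one of 0.31. Stat5b, which relays the erythropoietin signal, averaged 89.5 ± 13.7 CPM in knockdown (SD, n = 8) and 109 ± 10.52 CPM in shLuc libraries (SD, n = 4), a log2 fold change of -0.29. Kit, the receptor for stem cell factor, stood at 413, 260.3, 308 and 292 CPM in shDis3 libraries and at 305, 467, 503 and 472 CPM in shExosc10 libraries, against 577, 459, 556 and 378 CPM in shLuc libraries. All shDis3 libraries, shExosc10 replicate 1 and shLuc replicate 4 lay below every other library. Of the 8 knockdown libraries, 4 were below every shLuc library. The log2 fold change of Kit was -0.40 (SE 0.18), with -0.63 in shDis3 and -0.17 in shExosc10. It ran from -0.52 to -0.31 with each library left out. Atg5, an autophagy gene, had a value of 0.46 (SE 0.17), and the 26 genes of autophagy and mitochondrial clearance had a median of -0.06.

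**Figure D3:**
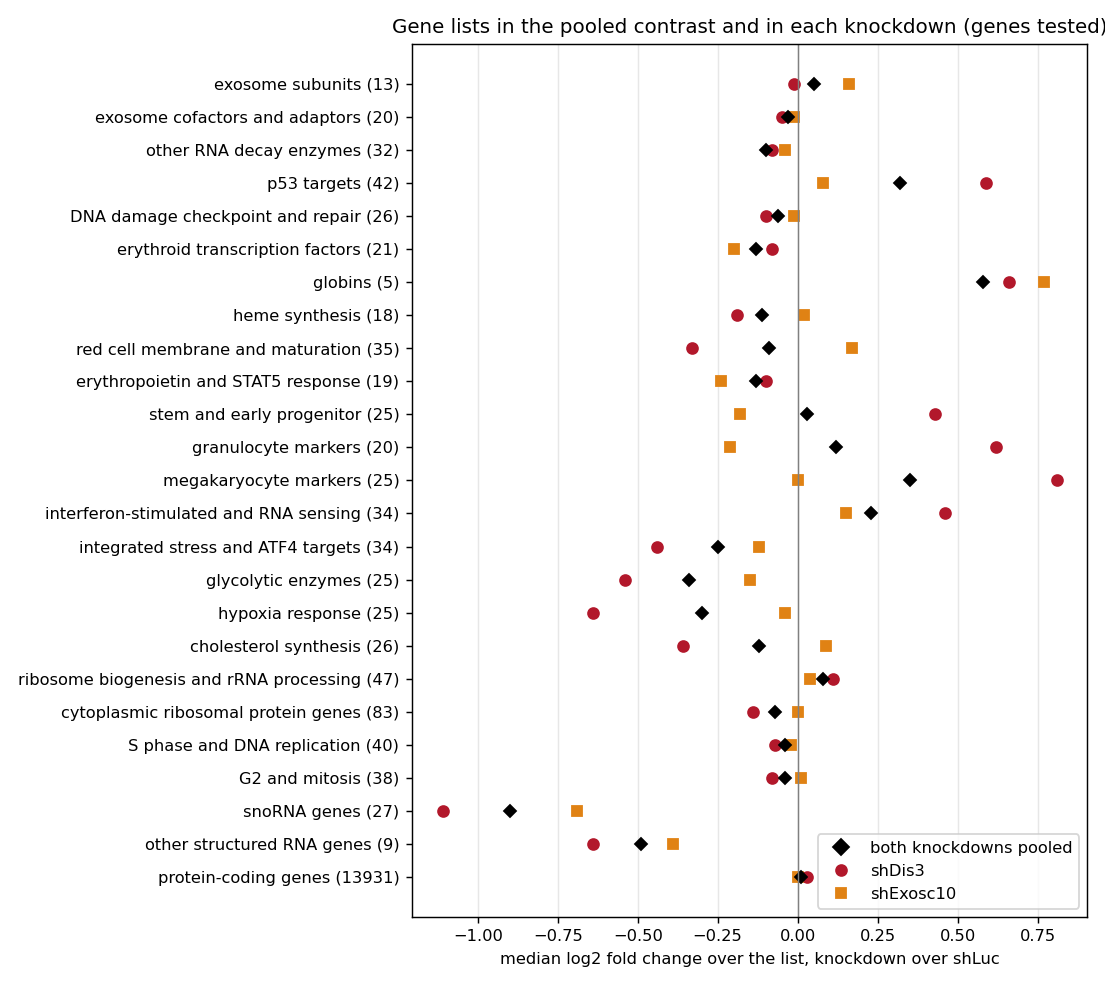
Median log2 fold change (horizontal axis) over the tested members of 25 gene lists, whose number of members follows the name, for both knockdowns pooled (black diamonds), shDis3 (red circles) and shExosc10 (orange squares), all against the same shLuc libraries. The pooled medians ran from -0.90 for snoRNA genes to 0.58 for globins, against 0.01 for protein-coding genes.

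Genes of glycolysis, the hypoxia response and stress had negative values for most members, and they shared 1 split of the libraries. Of 25 glycolytic genes 22 had negative log2 fold changes and 7 passed an unadjusted p under 0.05 in that direction (against 1.14% of all genes). The same counts, 22 of 25 and 7, held for the hypoxia response, and 30 of 34 with 8 for the integrated stress response and targets of the factor ATF4. The pooled medians were -0.34, -0.30 and -0.25. In shDis3 they were -0.54, -0.64 and -0.44, and in shExosc10 -0.15, -0.04 and -0.12. With each library left out in turn, the pooled medians ran from -0.47 to -0.22 for glycolysis and from -0.48 to -0.14 for hypoxia, lowest without shLuc replicate 4 and highest without shLuc replicate 3, and from -0.37 to -0.20 for stress. They were -0.14, -0.01 and -0.13 with 4 clusters of libraries as a factor. That fit was chosen after seeing the data, and its clusters rest on expression. It sets shExosc10 replicates 2 to 4 beside shLuc replicates 1 to 3, and shDis3 replicate 3 beside shLuc replicate 4. shDis3 replicates 1 and 2 form a cluster alone, and shDis3 replicate 4 shares one with shExosc10 replicate 1. As those clusters hold no shLuc library, the fit may also take up part of a difference between shDis3 and shLuc. shDis3 replicates 1 and 2 add nothing to its shDis3 log2 fold change. That value rests directly on shDis3 replicate 3 beside shLuc replicate 4, and shDis3 replicate 4 enters only by way of shExosc10 replicate 1.

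Bnip3, a mitochondrial protein that hypoxia induces, is an example of the split. It stood at 13.1, 13.4, 18.0 and 22.7 CPM in shDis3 libraries and at 17.6, 80.7, 115 and 101 CPM in shExosc10 libraries, against 107, 103, 126 and 14.1 CPM in shLuc libraries. All shDis3 libraries, shExosc10 replicate 1 and shLuc replicate 4 were low, and the other 6 libraries were high. The pooled log2 fold change was -1.27 (SE 0.47), with -2.38 in shDis3 and -0.16 in shExosc10, a difference between the knockdowns of -2.23 that did not pass (adjusted p = 0.666, edgeR). Ndrg1, another hypoxia target, stood at 2.87 to 5.49 CPM in shDis3 libraries and at 4.09, 16.9, 21.6 and 24.4 CPM in shExosc10 libraries, against 21.9, 22.5, 34.5 and 4.16 CPM in shLuc libraries. Ankrd37 divided the libraries in the same way, with a pooled log2 fold change of -1.78 (SE 0.63). With 4 clusters as a factor the values were 0.06 for Bnip3, -0.22 for Ndrg1 (-1.32 with no such factor) and -0.01 for Ankrd37, and with 3 clusters over all genes they were -0.45, -0.67 and -0.34. Kit and Tfrc, given above, also divided the libraries in this way. Their values were -0.21 and -0.05 with 4 clusters as a factor. Ero1l, an oxidase that forms disulfide bonds, had -0.70 (SE 0.18), with 77.8 to 115 CPM in shDis3 libraries and 149 to 214 CPM in shExosc10 libraries, against 151 to 298 CPM in shLuc libraries.

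Trib3, a pseudokinase that ATF4 induces, had the lowest value of the stress list, a pooled log2 fold change of -1.94 (SE 0.51, unadjusted p = 0.00177, adjusted p = 1). It stood at 1.77, 2.15, 3.47 and 1.89 CPM in shDis3 libraries and at 2.54, 14.9, 14.6 and 18.9 CPM in shExosc10 libraries, against 31.6, 21.97, 27.5 and 2.65 CPM in shLuc libraries. In this gene even the high shExosc10 libraries lay below the 3 high shLuc libraries. Its value was -0.91 with 3 clusters and -0.41 with 4 clusters as a factor. Atf4 itself ranged from 135 to 255 CPM in knockdown and from 217 to 299.6 CPM in shLuc libraries (log2 fold change -0.43, SE 0.15), with 6 of 8 knockdown libraries below every shLuc library. Shmt2, a mitochondrial enzyme of serine use, had 7 of 8 below and a value of -0.40 in each knockdown, and Psph, the last enzyme of serine synthesis, had -0.65 (SE 0.24). Slc16a3, the lactate exporter, had -0.92 (SE 0.31), and Aldoa, the aldolase of glycolysis, -0.48 (SE 0.21), which were -0.65 and -0.25 without shLuc replicate 3 and -1.12 and -0.63 without shLuc replicate 4. Of 26 genes of cholesterol synthesis 23 were negative with a median of -0.12, or -0.36 in shDis3 and 0.09 in shExosc10. Dhcr7, the last enzyme of that pathway, had -0.37, and Hmgcs1, an early one, had -0.51 in shDis3 and 0.05 in shExosc10.

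**Figure D4:**
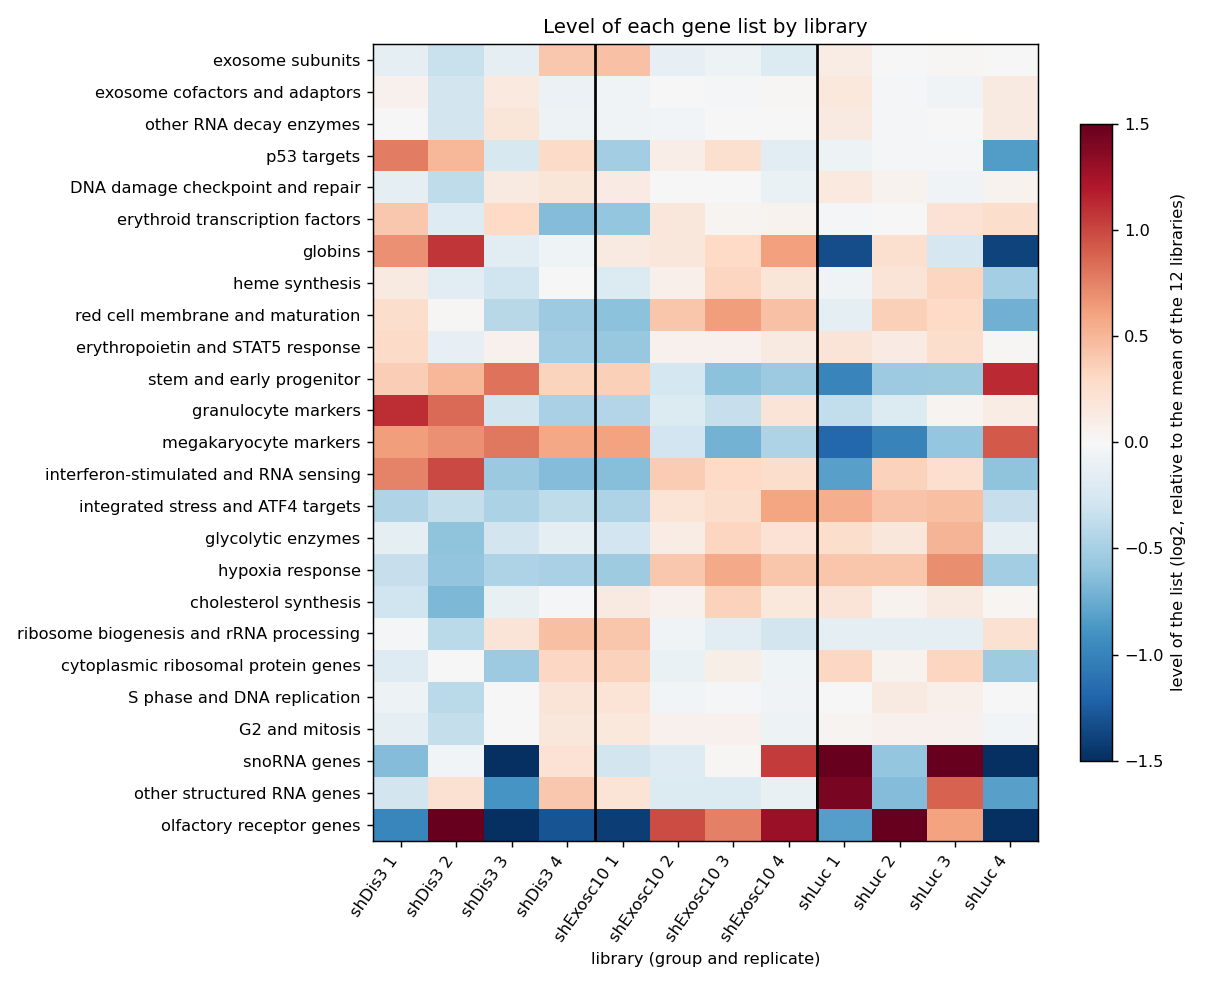
Mean log2 CPM of the tested members of each gene list in each library, relative to the mean of the 12 libraries (colour scale in log2 units, where the darkest colours include levels beyond the ends of the scale), with black lines between shDis3, shExosc10 and shLuc. For hypoxia, stress and megakaryocyte lists, shExosc10 replicate 1 and shLuc replicate 4 have the colour of the shDis3 libraries.

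The megakaryocyte, macrophage and stem cell lists divided the libraries in the same way. Their higher levels were in all shDis3 libraries, shExosc10 replicate 1 and shLuc replicate 4. The levels of the megakaryocyte list were 0.58 to 0.92 on the log2 scale in those 6 libraries and -1.18 to -0.29 in the others. The granulocyte, mast cell and lymphoid lists as wholes did not follow that division. Of the granulocyte genes described below, Mpo and Ctsg followed it, and Ms4a3 did except that shExosc10 replicate 3 exceeded shDis3 replicate 3. Of the 25 megakaryocyte genes 22 had positive values. Their median was 0.35 pooled, 0.81 in shDis3 and 0.00 in shExosc10, and it ran from 0.23 without shLuc replicate 1 to 1.27 without shLuc replicate 4. Ppbp, a platelet chemokine, had the smallest unadjusted p of all genes tested (0.000115, adjusted p = 1 with edgeR and 0.00229 with DESeq2). It stood at 6.09, 6.39, 3.41 and 5.96 CPM in shDis3 libraries and at 4.96, 3.803, 2.80 and 1.76 CPM in shExosc10 libraries, against 0.74, 1.09, 1.14 and 1.71 CPM in shLuc libraries. The groups did not overlap, although the lowest knockdown and the highest shLuc library nearly met, and the log2 fold change was 1.85 (SE 0.35). Pf4, another platelet chemokine, ranged from 26.7 to 96.98 CPM in knockdown and stood at 10.98, 13.3, 28.4 and 52.1 CPM in shLuc libraries (log2 fold change 1.08, SE 0.41).

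Of 20 granulocyte markers 14 were positive, with a median of 0.12 pooled, 0.62 in shDis3 and -0.21 in shExosc10, and of 0.58 without shLuc replicate 4 and 0.05 without shLuc replicate 1 or shDis3 replicate 1. Mpo stood at 3746, 2496, 2820 and 1558 CPM in shDis3 libraries and at 1497, 1109, 819 and 869 CPM in shExosc10 libraries, against 583, 772.5, 1010.0 and 3630.0 CPM in shLuc libraries. shLuc replicate 4 was as high as the shDis3 libraries, and the pooled log2 fold change of 0.17 became 1.10 without it and -0.09 without shLuc replicate 1. Ctsg, a protease of the same granules, had 0.95 with all libraries, 1.69 without shLuc replicate 4 and 0.74 without shExosc10 replicate 1, and Ms4a3, a marker of granulocyte precursors, had 1.12, 1.67 and 0.90. Of 17 macrophage and monocyte markers 13 were positive, with a median of 0.28 that ran from 0.05 without shExosc10 replicate 1 to 0.83 without shLuc replicate 4, and was -0.05 with 4 clusters as a factor. For 25 genes of stem cells and early progenitors the median was 0.03, with -0.18 without shExosc10 replicate 1 and 0.99 without shLuc replicate 4. Slamf1, a stem cell surface protein, ranged from 0.88 to 4.74 CPM in knockdown and from 0.11 to 2.45 CPM in shLuc libraries. The levels of the stem cell list ran from -0.62 to 0.82 in knockdown and from -0.99 to 1.12 on the log2 scale in shLuc libraries, so how far the share of early cells entered the other values was not tested.

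**Figure D5:**
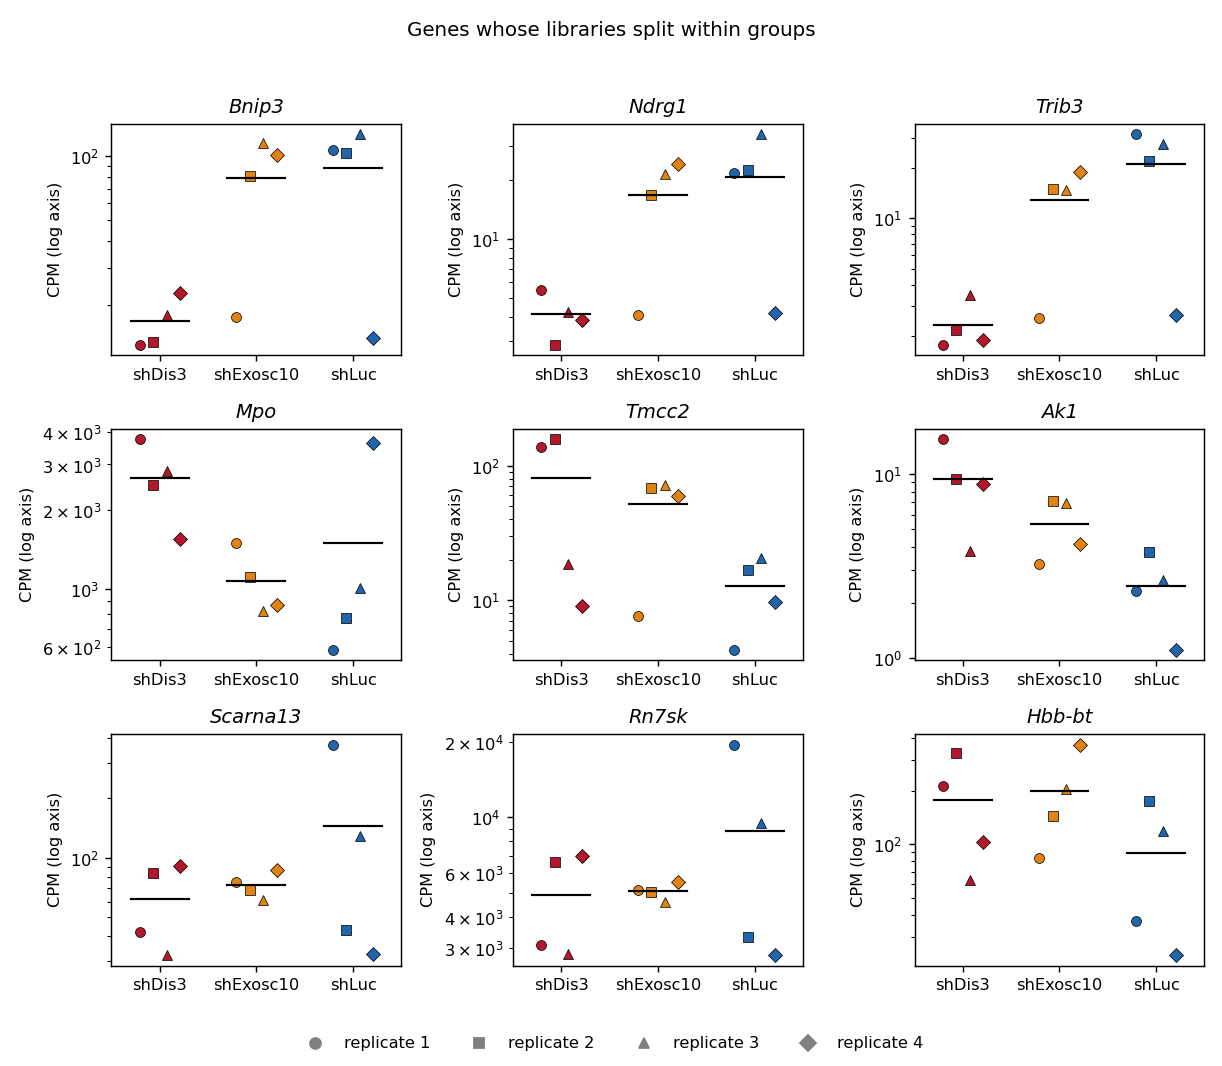
Level in CPM on log axes, by group, of 9 genes whose libraries split within a group, with a symbol for each replicate and a line for the mean of 4 libraries. In Bnip3, Ndrg1 and Trib3, shExosc10 replicate 1 and shLuc replicate 4 lie with the shDis3 libraries, and in Scarna13 and Rn7sk, shLuc replicates 1 and 3 lie above the rest.

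Of 34 interferon-stimulated and RNA-sensing genes, 29 were positive (85.3%), and the median log2 fold change was 0.23 pooled, 0.46 in shDis3 and 0.15 in shExosc10. Their level was high in shDis3 replicates 1 and 2 (0.74 and 0.99 on the log2 scale) and low in shDis3 replicates 3 and 4 (-0.56 and -0.65), and it ran from -0.64 to 0.38 in shExosc10 and from -0.81 to 0.35 in shLuc libraries. Oas1a, an enzyme that senses double-stranded RNA, stood at 5.98, 6.57, 1.504 and 2.18 CPM in shDis3 libraries and at 1.86, 3.32, 3.40 and 3.18 CPM in shExosc10 libraries, against 1.003, 2.25, 2.19 and 1.58 CPM in shLuc libraries (log2 fold change 0.97, SE 0.42). Rsad2, the antiviral protein viperin, was at 0 in shDis3 replicates 3 and 4 and at 3.797 and 8.19 CPM in replicates 1 and 2. Its shExosc10 libraries ran from 0.08 to 4.33 CPM and its shLuc libraries from 0.05 to 1.499 CPM. Ifitm3, a membrane protein that blocks virus entry, had a value of 0.94 (SE 0.41), and Stat2, which relays the interferon signal, one of -0.47 (SE 0.22). Of 30 immediate early and heat shock genes 23 were negative (median -0.09). Fos, an immediate early factor, had a value of -0.89 (SE 0.31), from -1.13 without shLuc replicate 2 to -0.42 without shLuc replicate 1, which stood at 18.9 CPM against 4.43 to 11.7 CPM in the other shLuc libraries. Of 21 genes of NF-kB signalling and inflammation 14 were negative (median -0.13), and Nfkbiz, an inducible regulator of that pathway, had a value of -0.74 (SE 0.28).

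Genes of growth and division had medians near 0. The medians were 0.08 for 47 genes of ribosome biogenesis (35 positive), -0.07 for 83 ribosomal protein genes (19 positive), -0.04 for 40 genes of S phase (14 positive) and -0.04 for 38 genes of mitosis (13 positive). Utp6, a factor of small-subunit processing, ranged from 95.4 to 201.5 CPM in knockdown and from 67.0 to 137 CPM in shLuc libraries (log2 fold change 0.60, SE 0.24). Cdc6, which licenses replication, had -0.29, and 6 of 8 knockdown libraries were below every shLuc library. Mki67, the proliferation marker, ranged from 800.0 to 2023 CPM in knockdown and from 1680.0 to 1811 CPM in shLuc libraries, with the lowest values in shDis3 replicate 4 and shExosc10 replicate 1. Of 44 nuclear genes of oxidative phosphorylation 20 were positive (median -0.01), and of 13 mitochondrial mRNAs 5 were (median -0.03), with 0.29 for mt-Co1, a subunit of cytochrome c oxidase. The 65 clustered histone genes had a median of -0.07, and Hist2h2be, one whose RNA can be polyadenylated, had 0.95 (SE 0.41).

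Noncoding transcripts, among which are known substrates of the exosome, had medians slightly above that of protein-coding genes with all libraries. The median was 0.14 for 451 antisense RNA genes (274 positive) and 0.11 for 684 long intergenic noncoding RNA genes (410 positive), against 0.01 for 13931 protein-coding genes. With each library left out in turn these medians ran from -0.28 to 0.46 and from -0.49 to 0.52, lowest without shDis3 replicate 2 and highest without shLuc replicate 2. The level of the antisense list ran from -0.79 to 1.22 in knockdown and from -0.97 to 0.73 on the log2 scale in shLuc libraries. That of 143 olfactory receptor genes, which these cells have no known use for, ran from -1.52 to 2.27 in knockdown and from -1.52 to 1.65 in shLuc libraries, and was highest in shDis3 replicate 2 for both lists. The number of genes with a count also varied, from 18628 to 35190 in knockdown and from 17981 to 33019 in shLuc libraries, and its part in these values was not tested. Of 16 nuclear long noncoding RNAs 11 were positive with a median of 0.08. H19, an imprinted RNA of fetal tissues, ranged from 0.30 to 2.64 CPM in knockdown and stood at 0.74, 3.65, 6.80 and 4.19 CPM in shLuc libraries (log2 fold change -1.65, SE 0.55).

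In a further fit shLuc replicate 4, shDis3 replicate 4 and shExosc10 replicate 1 were left out together, since these had been seen to resemble libraries of other groups. Other libraries that lay closest to another group, such as shDis3 replicate 3, were kept. Of 19126 genes then tested with edgeR, 85 (0.444%) were called higher and 30 (0.157%) lower. Because the choice of the libraries left out rests on their expression, the calls describe how far the result depends on them. Rab1a (log2 fold change 2.03), Serinc3 (1.15), Timm10, Ppbp (1.95), Mpo (1.09), Ctsg (1.40) and Ms4a3 (1.46) were among those called higher. Trib3 (-2.08), Bnip3 (-1.54), Ankrd37 (-2.14), Ndrg1 (-1.48), Ero1l (-0.82) and Psph (-0.94) were among those called lower, beside Dis3 (-0.90) and Exosc10 (-0.86). Each of these had the same direction with all libraries, and for Mpo the value was then 0.17. For Bnip3, Ndrg1 and Ankrd37 the kept shExosc10 libraries overlapped the kept shLuc libraries, and the kept shDis3 libraries lay below both. With 4 clusters as a factor in place of leaving libraries out, 2 genes were called higher (0.0113%), Rab1a and Inka2, and 2 lower (0.0113%), Dis3 and the histone gene Hist2h2aa2. Inka2 and Hist2h2aa2 are named because of these calls. In that fit the values of Trib3, Bnip3, Ankrd37 and Ndrg1 lay nearer 0, as given above. There, shDis3 replicate 3 is the sole shDis3 library that shares a cluster with an shLuc library.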

How the data were processed

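RNA was measured in 12 libraries made with a stranded kit for small amounts of total RNA, 4 per hairpin, with groups taken from the sample titles. RSEM 1.3.0, STAR 2.5.3a and the build GRCm38 (mm10) are listed in the submitters' processing notes, with no roles, and neither annotation release nor strand setting is stated there. Each deposited table gives, per the file headers, expected counts from RSEM, which shares ambiguous reads among genes, so that 10.0% of the nonzero values were not whole. Per the file headers, the deposited tables also hold TPM, which were used for markers and in limma.

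These counts, rounded to whole numbers, were analysed with edgeR 4.0.16 in R 4.3.3: TMM factors, filterByExpr by group, 1 quasi-likelihood fit over the 3 groups, the contrast of the mean of both knockdowns minus shLuc, and Benjamini-Hochberg adjustment over the 17650 genes tested (threshold 0.05). The biological coefficient of variation was 60.0%. The script was tested on simulated data, whose libraries were drawn independently and so lacked the resemblance across groups seen here. Alternatives were DESeq2 1.42.0, its size factors in edgeR, limma 3.58.1 on log2(TPM + 1) and log2(TPM + 0.1), no count filter, a replicate block, 1 knockdown group of 8, clusters of libraries as a factor, and leaving out each library or 3 together. Gene names, types and coordinates came from GENCODE M21, which matched 55144 of 55385 identifiers without their version. A list's level is the mean log2 CPM of its tested members, relative to the 12 libraries.

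Named genes were the targets, up to 15 genes per direction with at least 5 CPM whose groups did not overlap, by p, and for each list up to 4 members of smallest p and 2 of highest mean level. A few genes that the rule or the marker lists name are not reported here. The members and lists were chosen with earlier results of these data known. No pair of libraries differed as little as sampling noise allows. The main fit did not pair libraries by replicate number. Deviations of same-numbered libraries from their group means correlated from -0.47 to 0.773. Deviations of differently numbered libraries were not set beside these, so the values cannot decide whether the numbers pair the samples.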

Additional observations from a re-analysis of the deposited data

Results flagged for a closer look

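Samples far from the others of their group were looked for in 381 groups of 4 libraries, over genes named above and gene lists, and 37 were found, where chance gives about 1 in 20. Most involved shExosc10 replicate 1, shLuc replicate 4 or shDis3 replicate 4. shLuc replicate 4 was apart from the other shLuc libraries at 59.8 CPM for Rab1a, 449.6 for Serinc3, 68.0 for Mdm2, 32.01 for Ms4a3, 107 for Ctsg and 3630.0 for Mpo. Its list levels were -0.84 for p53 targets, -0.35 for ATF4 and stress genes and 0.23 for ribosome biogenesis, on the log2 scale. shExosc10 replicate 1 was apart at 196 CPM for Dis3, 258 for Sptb, 1.86 for Oas1a, 5.68 for Stat2 and 120 for Cdc6. Its list levels were -0.62 for red cell membrane genes, -0.57 for the erythropoietin response, -0.64 for interferon-stimulated genes, 0.20 for S phase and -0.53 for the hypoxia response. shDis3 replicate 4 was highest at 97.8 CPM for Rab1a, 26.9 for Rbm12b2, 64.8 for Cdc26, 44.5 for Cab39l and 157 for Exosc9. Which feature of these libraries sets them apart was not tested.

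The other such values were, in shDis3 libraries, 8.18 CPM for Eda2r and 3.41 for Ppbp in replicate 3, and 120 for Lmo2 and 197.5 for Shmt2 in replicate 2, with list levels there of 0.33 for NF-kB genes and 2.27 for olfactory receptors. In shExosc10 replicate 4, Shmt2 stood at 361 CPM. In shLuc libraries they were 72.5 CPM for Nsmce4a, 111 for Exosc9 and 187 for Atm in replicate 1, with a level of 0.11 for the exosome subunits, 30.4 for Cdc26 in replicate 2 and 1680.0 for Mki67 in replicate 3.

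The knockdowns differed from each other in their targets, by -1.90 for Dis3 and 2.11 for Exosc10 (shDis3 minus shExosc10, log2, adjusted p = 0.0138 and 0.00144, edgeR). For Mpo, all shDis3 libraries lay above and all shExosc10 libraries below the shLuc mean of 1499 CPM. That mean rested on shLuc replicate 4 at 3630.0 CPM, against 583 to 1010.0 CPM in the other shLuc libraries. The shExosc10 libraries, at 819 to 1497 CPM, all lay above shLuc replicates 1 and 2. The difference of 1.31 between the knockdowns did not pass (adjusted p = 0.769, edgeR).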

How the results depend on the processing

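With edgeR, the 0 genes called higher and 0 called lower also held with DESeq2's size factors, limma at either pseudocount, the replicate block, 1 knockdown group of 8, and clusters of libraries over all genes as a factor. They became 18 higher and 43 lower of 41382 genes with no filter on low counts, 3 and 2 with DESeq2 (44 adjusted p were not given), 85 and 30 with the 3 libraries named above left out together, and 2 and 2 with 4 clusters from expressed genes as a factor, an alternative chosen after seeing the data. Leaving out each library in turn gave 0 to 1 called higher and 0 called lower, with Rab1a called without shLuc replicate 4. Genes at an unadjusted p under 0.05 numbered 397, and 1760 with no filter, 1700 without the 3 libraries and 204 to 1304 with each library left out, the lowest without shLuc replicate 1 and the highest without shLuc replicate 4. They numbered 224 without shLuc replicate 3 and 646 without shDis3 replicate 2. Genes whose groups did not overlap numbered 25, 520 without the 3 libraries and 33 to 307 with each library left out, most without shLuc replicate 4. The cause was not tested, beyond that fewer libraries overlap less easily. With the replicate block 285 genes had an unadjusted p under 0.05 and 0 were called, and 1 of 12 libraries correlated best with one of its own number.

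With 3 clusters as a factor, the log2 fold change turned to 0.15 for Snhg1, 0.04 for Tfrc, 0.00 for Mpo, 0.18 for Scarna10, 0.16 for Scarna13 and 0.09 for Rn7sk. With 4 clusters it turned to 0.27 for Sptb, 0.06 for Bnip3, -0.86 for Rsad2 and 0.05 for Mki67. With each library left out in turn it ran from -0.63 to 0.07 for Snhg1 and from -0.09 to 1.10 for Mpo, lowest for Mpo without shLuc replicate 1. Of 45 lists, 8 kept the sign of their median under every alternative run. Small differences in genes of few CPM were not detectable at this depth and spread. Larger differences in genes of many CPM could also miss the threshold, as Dis3 did in shDis3 (log2 fold change -1.78, adjusted p = 0.0581, edgeR).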
